A study of Mus musculus with 8 samples.

Results

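The genes described here encode enzymes and carriers of the citric acid cycle and of mitochondrial fatty acid oxidation in mouse skeletal muscle. They were taken from a list of 37 genes, 14 of the cycle and 23 of fatty acid oxidation, and a gene counted as measured where a probe set of the array was annotated to it alone. That gave 31 measured genes, 13 of the cycle and 18 of fatty acid oxidation, among 14860 genes of the table. Suclg2, Acsl1 and Mlycd had no probe set in the annotation used. Acadl, Hadhb and Cpt1b shared theirs with other genes and are given no value. The muscle was the tibialis anterior, which lifts the foot, and the animals were C57BL/6 males aged 8 weeks. The right muscle was electroporated with 25 µg of pCMV-ATF4-FLAG, a plasmid in which the cytomegalovirus promoter drives FLAG-tagged ATF4. The empty vector pcDNA3, also 25 µg, went into the left muscle. Muscles were taken on day 11 from mice that had not been fasted, and 4 experiments gave 4 ATF4 arrays and 4 empty vector arrays. ATF4 plasmid and right leg always went together, so plasmid and side cannot be told apart. The labels state neither the share of fibres transfected nor whether an experiment was 1 mouse or several. P-values therefore refer to these experiments, and their error term also draws on the variance of other probe sets.

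In a muscle fibre both pathways run in the mitochondrial matrix. Fatty acids are bound in the cytosol, activated to acyl-CoA, carried across the inner membrane as carnitine esters and shortened in repeated rounds to acetyl-CoA. Citrate synthase then feeds acetyl-CoA from fat or from pyruvate into the cycle, and both pathways pass electrons to the respiratory chain. Fast muscles such as the tibialis anterior also rely on glycolysis and hold less of this machinery than slow muscles. ATF4 is a transcription factor of the amino acid and stress response.

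All values are the deposited log2 signals, and every difference is ATF4 minus empty vector within an experiment. The signal of one probe set is not compared with that of another as abundance. Atf4 itself read 6.65, 6.56, 6.72 and 6.18 on the ATF4 arrays of experiments 1 to 4, against 6.42, 6.24, 6.48 and 6.23 on the empty vector arrays. The groups overlapped, and the fitted difference was 0.18 (SE 0.11, limma adjusted p = 0.846). After quantile normalization it was 0.26 (SE 0.09, limma adjusted p = 0.705), higher in 4 of 4 experiments. The sources do not place these probes along the transcript, so this is no full check of the transfection. Probe sets of fast fibre markers were among the brightest 10%, such as that of Ckm, muscle creatine kinase, at 8.96 ± 0.14 with ATF4 and 9.09 ± 0.16 with empty vector (SD, n = 4 each). The correlation between arrays over all probe sets ran from 0.916 to 0.981. The 2 arrays of experiment 4 differed most in their range, with an SD over probe sets of 1.145 for ATF4 and 1.31 for empty vector. In experiments 1 to 3 the SDs were 1.211, 1.116 and 1.288 for ATF4, against 1.189, 1.106 and 1.316 for empty vector.

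No gene of either pathway passed the threshold, an adjusted p under 0.05 from limma over all 16755 probe sets, of which 0.0179% passed. The smallest adjusted p was 0.846 in the cycle and 0.796 in fatty acid oxidation. At an unadjusted p under 0.05 there was 1 gene of 31, Acadm of fatty acid oxidation, which was lower, where 2.77% of all probe sets were lower at that level. Lower mean values with ATF4 were found for 9 of 13 cycle genes and 12 of 18 fatty acid oxidation genes, or 67.7% of both, against 45.5% of all probe sets. The median difference was -0.09 in the cycle and -0.14 in fatty acid oxidation, against 0.02 over all probe sets. The largest differences were -0.35 and 0.21, and standard errors ran from 0.09 to 0.18. With the deposited values the 95% intervals of the single genes reached at most from 0.63-fold to 1.39-fold. They were not adjusted for the number of genes, and after quantile normalization that of Acot2 reached up to 0.52 (log2). In bulk muscle RNA, fewer cells of a type and less RNA per cell cannot be told apart.

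**Figure D1:**
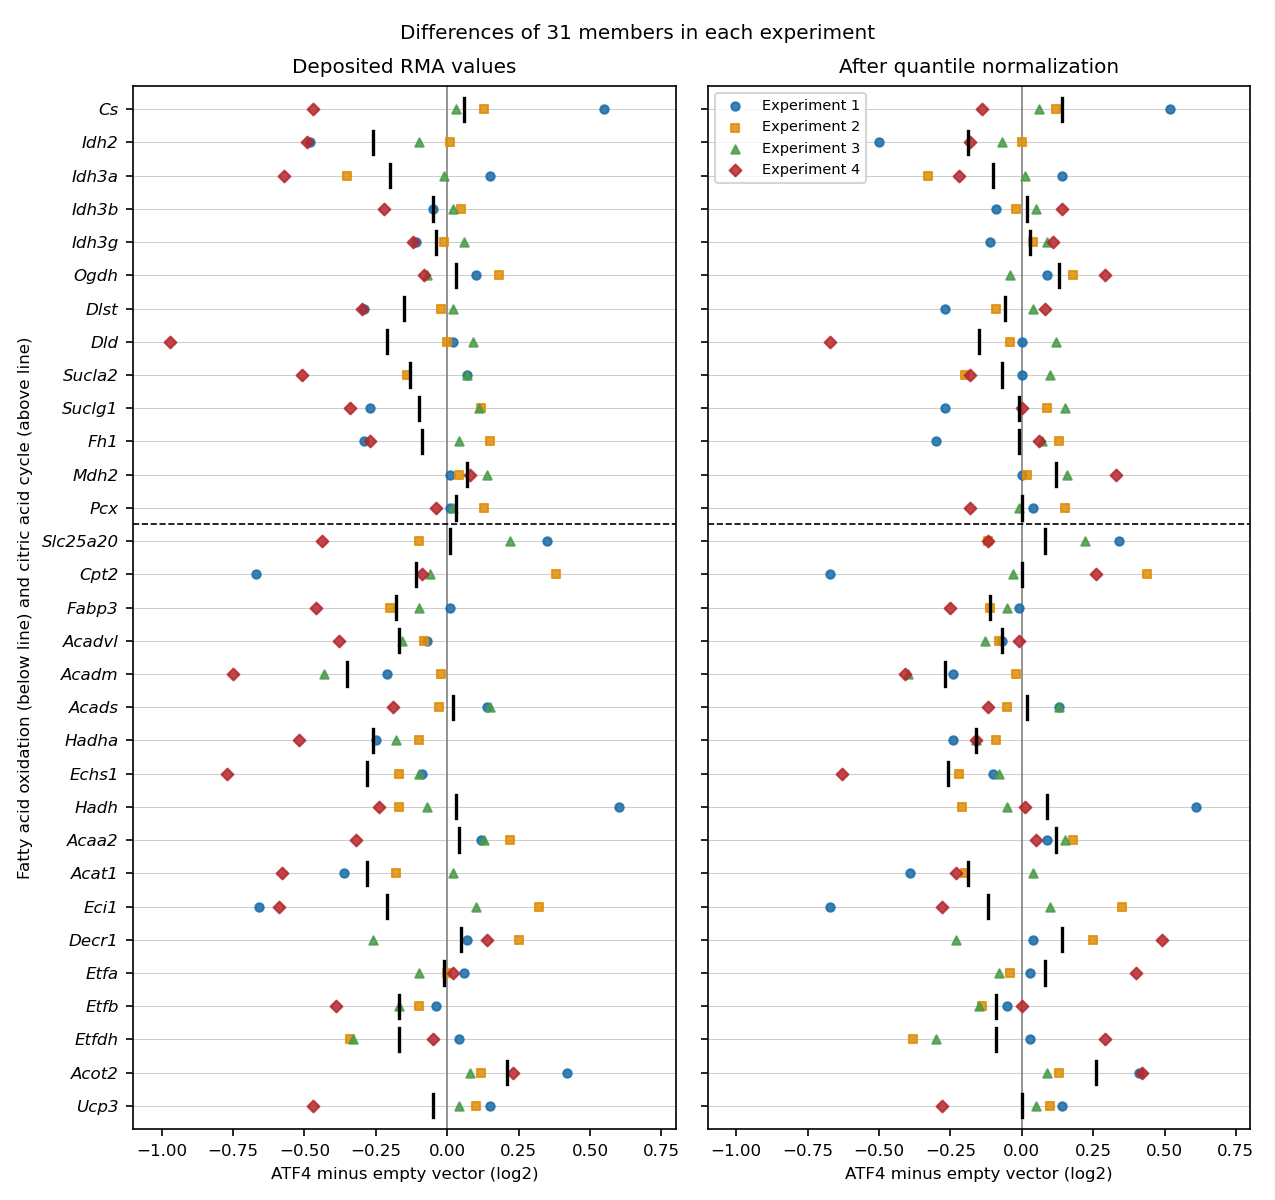
Difference between ATF4 and empty vector (log2, horizontal axis) for each of the 31 measured genes in experiments 1 to 4 (symbols), with the fitted difference as a black bar, for the deposited values (left) and after quantile normalization (right). Experiment 4 lies to the left of 0 for 27 of the 31 genes with the deposited values and for 17 after quantile normalization.

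The low values came mostly from experiment 4. Of the 13 cycle genes, 6, 4, 3 and 12 were lower with ATF4 in experiments 1 to 4, and of the 18 fatty acid oxidation genes 8, 11, 11 and 15 were lower. The share of all probe sets that were lower was 51.9%, 49.8%, 47.4% and 42.8% in the same experiments. The median difference of the cycle was 0.009, 0.04, 0.03 and -0.301, and that of fatty acid oxidation 0.026, -0.053, -0.086 and -0.384. The cycle was therefore near 0 in 3 experiments and low in 1. Fatty acid oxidation was below 0 in 3 experiments, most of all in experiment 4. Without experiment 4 the median of the fitted differences was -0.00018 in the cycle and -0.09 in fatty acid oxidation. With arrays weighted by how well they fitted, experiment 4 had the lowest weight, 0.438 against 0.899 to 2.714, and the medians were -0.0086 and -0.08.

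The genes sit where experiment 4 differed for bright probe sets in general. By mean signal over the 8 arrays, 22 of the 31 genes, 12 of them in the cycle, belonged to the brightest 10% of probe sets, and 6 more to the 10% below. In experiment 4 the median difference of the brightest 10% was -0.34, and 82.5% of these 1676 probe sets were lower with ATF4. The next 10% had a median of -0.239, and the dimmest 10% a median of 0.207. In experiments 1 to 3 the brightest 10% had medians of 0.034, 0.012 and -0.041. The members' own medians in experiment 4, -0.301 and -0.384, stood on either side of that of the brightest 10%. Quantile normalization, which gives all arrays one distribution of values, brought the brightest 10% to -0.01 in experiment 4, the cycle to -0.002 and fatty acid oxidation to -0.065. The part that the range of this array pair has in the low values was not tested beyond that normalization.

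**Figure D2:**
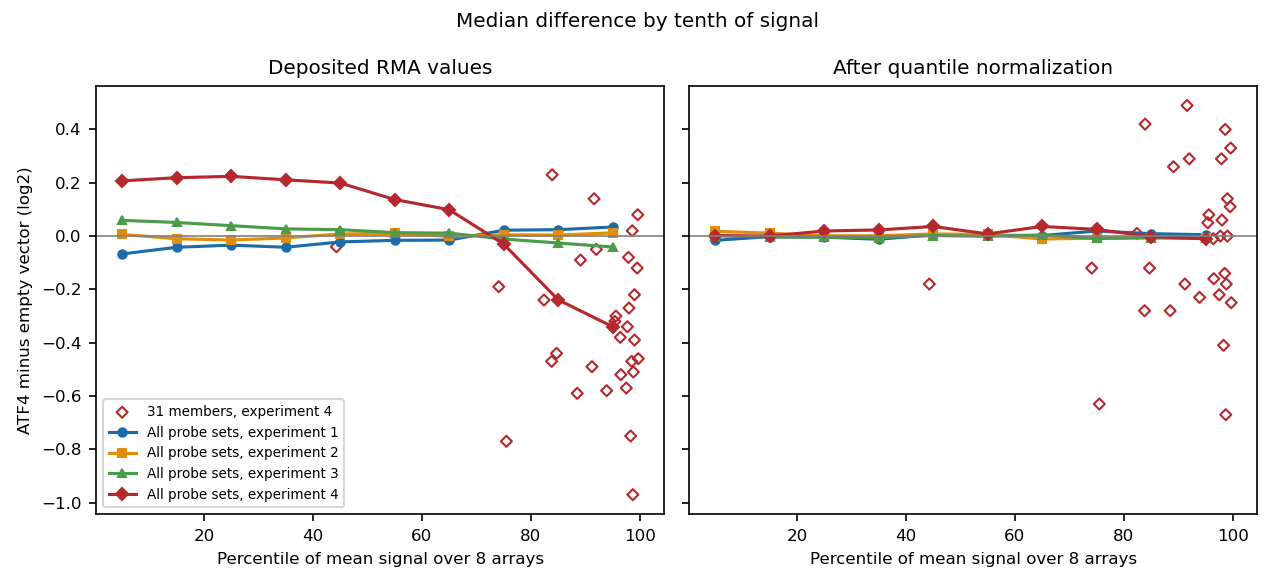
Median difference between ATF4 and empty vector (log2, vertical axis) of all probe sets in steps of 10% of mean signal (horizontal axis, percentile), 1 line per experiment, with the 31 genes in experiment 4 as open diamonds. With the deposited values (left) the line of experiment 4 lies at 0.207 for the dimmest and -0.34 for the brightest 10%, and after quantile normalization (right) at 0.002 and -0.01.

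After quantile normalization the fitted differences had a median of -0.008 in the cycle and -0.036 in fatty acid oxidation, against 0.002 over all probe sets. Lower values were found for 8 of 13 cycle genes and 9 of 18 fatty acid oxidation genes, against 49.5% of all probe sets. No gene passed, with smallest adjusted p-values from limma of 0.807 and 0.718, where 0.0119% of all probe sets passed. Acadm was lower and Acot2 was higher at an unadjusted p under 0.05, where 3.17% of all probe sets were lower and 3.25% higher at that level. By experiment, the medians were 0.006, -0.065, -0.054 and -0.065 in fatty acid oxidation and 0.0, 0.015, 0.058 and -0.002 in the cycle. No test of the difference between the pathways was made.

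**Figure D3:**
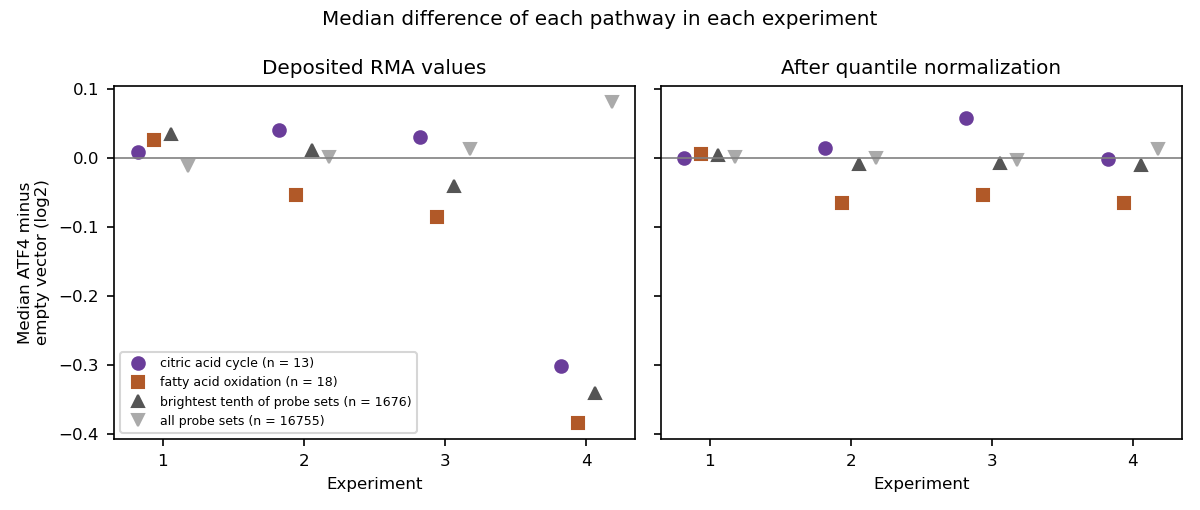
Median difference between ATF4 and empty vector (log2, vertical axis) in each experiment for the 13 cycle genes, the 18 fatty acid oxidation genes, the brightest 10% of probe sets and all probe sets, with the deposited values (left) and after quantile normalization (right). Both pathways lie below -0.3 in experiment 4 on the left and between -0.07 and 0.06 in every experiment on the right.

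In the citric acid cycle, the genes of the first and the last step differed little. Cs, citrate synthase, which joins acetyl-CoA to oxaloacetate, read 8.14, 7.53, 7.84 and 7.83 with ATF4, against 7.60, 7.39, 7.81 and 8.30 with empty vector. It was higher in 3 experiments and lower in experiment 4. The fitted difference was 0.06 (SE 0.16), or 0.14 (SE 0.11) after quantile normalization. Mdh2, malate dehydrogenase, which closes the cycle, read 9.14, 9.09, 9.13 and 9.39 with ATF4, against 9.13, 9.05, 8.99 and 9.31 with empty vector. With these deposited values it was the only cycle gene on the same side in 4 of 4 experiments, by 0.01, 0.04, 0.14 and 0.08. Of all probe sets, 8.25% were higher in 4 of 4. After quantile normalization Mdh2 differed by 0.00, 0.02, 0.16 and 0.33, and 0 cycle genes were on the same side in 4 of 4. With the deposited values the groups of Mdh2 overlapped, and the fitted difference was 0.07 (SE 0.09), with an interval from 0.91-fold to 1.21-fold.

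The isocitrate dehydrogenases were lower on average in 4 of 4 genes, by little. Idh2, the NADP-dependent enzyme of the matrix, had the lowest fitted difference of the cycle, -0.26 (SE 0.13, limma adjusted p = 0.846). It read 5.92, 5.91, 5.96 and 5.95 with ATF4, against 6.40, 5.90, 6.06 and 6.44 with empty vector. The ATF4 arrays lay within 0.05 of each other, and the empty vector arrays of experiments 1, 3 and 4 stood above all of them. Its difference after quantile normalization was -0.19 (SE 0.11). Idh3a, Idh3b and Idh3g are the catalytic and regulatory subunits of the NAD-dependent enzyme, which commits citrate to oxidation. Idh3a differed by -0.20 (SE 0.14), Idh3b by -0.05 (SE 0.10) and Idh3g by -0.04 (SE 0.09). After quantile normalization Idh3a differed by -0.10, Idh3b by 0.02 and Idh3g by 0.03, so the signs of Idh3b and Idh3g depended on it.

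The α-ketoglutarate dehydrogenase complex is made of Ogdh, Dlst and Dld, and Dld differed in 1 experiment. Dld, the dihydrolipoamide dehydrogenase that this complex shares with pyruvate dehydrogenase, read 8.15, 7.75, 8.00 and 7.56 with ATF4, against 8.13, 7.75, 7.92 and 8.52 with empty vector. Its differences were 0.02, 0.00, 0.09 and -0.97, so the fitted -0.21 (SE 0.18) rested on experiment 4. The value was 0.04 without that experiment, and experiment 4 stood at -0.67 after quantile normalization. Ogdh, the dehydrogenase subunit, differed by 0.03 (SE 0.11), and Dlst, the succinyltransferase core, by -0.15 (SE 0.11). Of the succinyl-CoA ligase subunits, Sucla2, which makes ATP, differed by -0.13 (SE 0.13) and the shared subunit Suclg1 by -0.10 (SE 0.12). Fh1, fumarase, differed by -0.09 (SE 0.12). After quantile normalization Ogdh differed by 0.13, Dlst by -0.06, Sucla2 by -0.07, Suclg1 by -0.01 and Fh1 by -0.01. Pcx, pyruvate carboxylase, which refills oxaloacetate, differed by 0.03 (SE 0.11) and was the single member in the dimmer 50% of probe sets, at 4.28 ± 0.07 with ATF4 and 4.25 ± 0.08 with empty vector (SD, n = 4 each).

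In fatty acid oxidation several genes were lower in every experiment. With the deposited values 5 of its 18 genes were lower in 4 of 4 experiments, Acadvl, Acadm, Hadha, Echs1 and Etfb, where 6.64% of all probe sets were. The count in the cycle was 0 of 13. In experiment 4, 82.5% of the brightest 10% of probe sets were lower, and 10 of the 18 genes belonged there. A share lower in 4 of 4 was not computed for bright probe sets alone. After quantile normalization the 5 were Fabp3, Acadvl, Acadm, Hadha and Echs1, where 7.5% of all probe sets were lower in 4 of 4. Among these, some differences were near 0, with -0.01 for Fabp3 in experiment 1, -0.02 for Acadm in experiment 2 and -0.01 for Acadvl in experiment 4. Of both pathways, the arrays of the ATF4 group lay wholly below those of the empty vector group for 0 genes, where 0.752% of all probe sets did.

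The acyl-CoA dehydrogenases open each round of oxidation, with enzymes graded by chain length. Acadm, the medium-chain enzyme, read 7.82, 7.52, 7.35 and 7.31 with ATF4, against 8.02, 7.54, 7.77 and 8.06 with empty vector. It was lower by 0.02 in experiment 2 and by more in the others, and the groups overlapped. The fitted difference was -0.35 (SE 0.14, 0.78-fold with an interval from 0.63 to 0.98, limma adjusted p = 0.796). It was -0.27 (SE 0.09) after quantile normalization and -0.22 without experiment 4. Acadvl, the very-long-chain enzyme, read 6.90, 6.84, 6.78 and 7.11 with ATF4, against 6.97, 6.92, 6.95 and 7.49 with empty vector. All but experiment 4 differed by 0.16 or less in size, and the fitted -0.17 (SE 0.11) was -0.07 (SE 0.08) after quantile normalization. Acads, the short-chain enzyme, differed by 0.02 (SE 0.12), higher in 2 experiments and lower in the other two.

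The enzymes that complete a round were uneven. Hadha, the α-subunit of the trifunctional protein that handles long chains, read 6.99, 6.83, 6.81 and 6.88 with ATF4, against 7.24, 6.92, 6.99 and 7.40 with empty vector. The ATF4 value was the lower one in each pair, and the fitted difference was -0.26 (SE 0.11, limma adjusted p = 0.828), or -0.16 (SE 0.08) after quantile normalization. Echs1, the short-chain enoyl-CoA hydratase, read 4.97, 4.72, 5.19 and 4.83 with ATF4, against 5.06, 4.89, 5.30 and 5.60 with empty vector. Its difference in experiment 4, -0.77, was the largest of the pathway in size, and the fitted -0.28 (SE 0.14) was -0.12 without that experiment. Acat1, the acetoacetyl-CoA thiolase that also serves ketone bodies, differed by -0.28 (SE 0.13), lower in 3 of 4 experiments. Hadh, the hydroxyacyl-CoA dehydrogenase of shorter chains, differed by 0.03 (SE 0.16), with 0.60 in experiment 1 and values below 0 in the other 3. Acaa2, the matrix thiolase that ends a round, differed by 0.04 (SE 0.13) and was the only gene besides Acot2 that was higher in 4 of 4 experiments after quantile normalization, where 7.65% of all probe sets were.

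**Figure D4:**
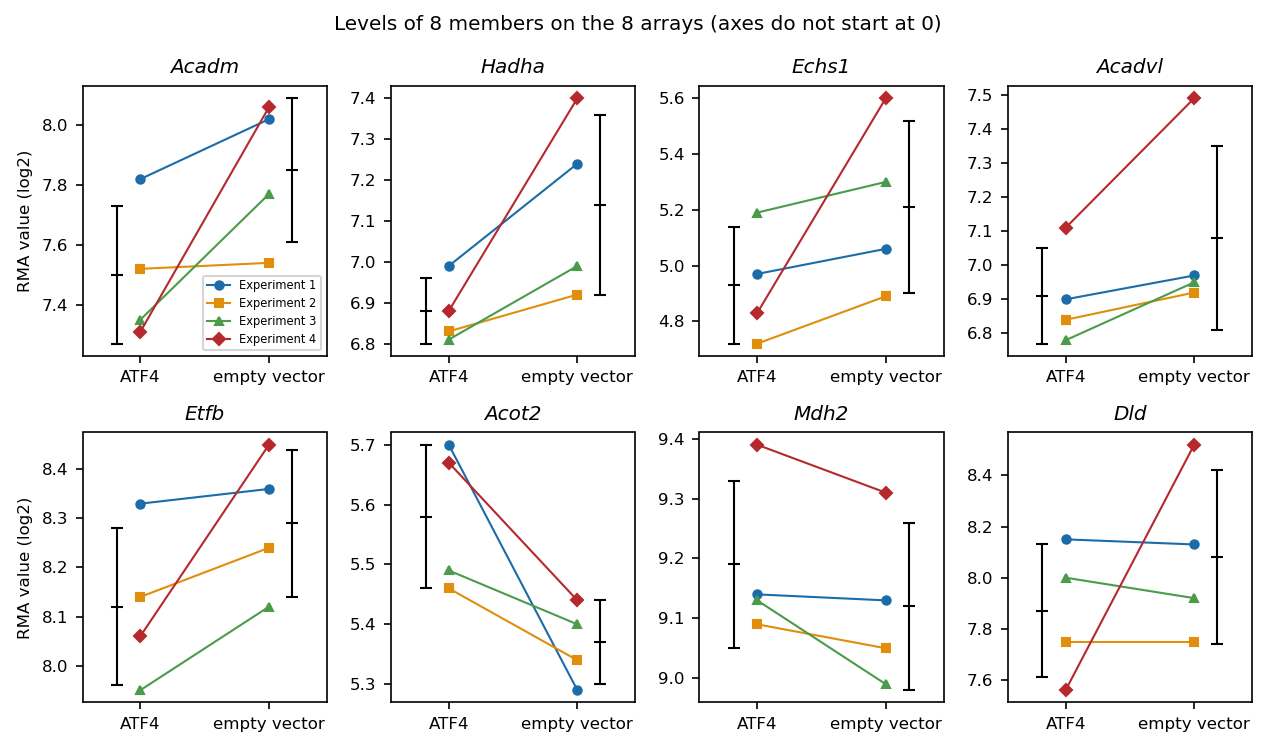
Deposited signal (log2, vertical axes, not starting at 0) of 8 genes on the ATF4 arrays (left in each panel) and empty vector arrays (right), with a line per experiment and mean ± SD of 4 arrays as black bars. Acadm, Hadha, Echs1, Acadvl and Etfb slope up towards empty vector in all 4 experiments, Acot2 and Mdh2 slope down, and Dld differs by 0.09 or less in all but experiment 4.

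The genes of fatty acid binding and of the carnitine shuttle showed no common direction. Fabp3, the fatty acid binding protein of heart and muscle, read 9.44, 9.22, 9.23 and 8.93 with ATF4, against 9.43, 9.41, 9.33 and 9.39 with empty vector. The SD was 0.21 on the ATF4 arrays and 0.04 on the empty vector arrays. The ATF4 array of experiment 1 lay above all empty vector arrays and the other 3 lay below them. The fitted difference of Fabp3 was -0.18 (SE 0.11), or -0.11 (SE 0.07) after quantile normalization. Slc25a20, the carnitine and acylcarnitine exchanger of the inner membrane, differed by 0.35, -0.10, 0.22 and -0.44 in experiments 1 to 4. Its fitted difference was 0.01 (SE 0.15). Cpt2, which returns the acyl group to CoA, differed by -0.67, 0.38, -0.06 and -0.09 in experiments 1 to 4, a spread that left the fitted value at -0.11 (SE 0.17). Of the auxiliary enzymes of unsaturated fatty acids, Eci1, an enoyl-CoA isomerase, differed by -0.66, 0.32, 0.10 and -0.59 in experiments 1 to 4. Its fitted difference was -0.21 (SE 0.18), and that of Decr1, a dienoyl-CoA reductase, was 0.05 (SE 0.12). Electron transfer flavoprotein passes electrons from the dehydrogenases to the chain through Etfdh. Its subunit Etfb differed by -0.17 (SE 0.11), Etfa by -0.01 (SE 0.10) and Etfdh by -0.17 (SE 0.12), so 3 of 3 were lower. After quantile normalization Etfb differed by -0.09, Etfa by 0.08 and Etfdh by -0.09. Etfb was lower in 4 of 4 experiments with the deposited values, and its difference in experiment 4 was -0.39 with those values and 0.00 after quantile normalization.

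Acot2, a thioesterase that splits long-chain acyl-CoA in the matrix, was higher with ATF4 in each experiment but did not pass the test. It read 5.70, 5.46, 5.49 and 5.67 with ATF4, against 5.29, 5.34, 5.40 and 5.44 with empty vector. All ATF4 arrays lay above all empty vector arrays, the only gene of the 31 whose groups did not overlap, where 1.41% of all probe sets were higher in that way. The fitted difference was 0.21 (SE 0.11, 1.16-fold with an interval from 0.96 to 1.39, limma adjusted p = 0.846), and 0.26 (SE 0.11) after quantile normalization. Without experiment 1 it was 0.14. Acot2 has close paralogs, and a further probe set annotated to it and to other genes was not used, so its signal may be shared. Ucp3, the muscle uncoupling protein that responds to fatty acid supply, differed by 0.15, 0.10, 0.04 and -0.47, for a fitted difference of -0.05 (SE 0.14).

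Promoter sequence was read for short motifs, since ATF4 binds a composite C/EBP-ATF element and since PPAR and ERR nuclear receptors are the known regulators of fatty acid oxidation. RefSeq windows on GRCm38.p6, from 250 bases before to 50 after a start, were in the table for 27 of the 31 measured genes, with 33 windows. TGATGNAA, on either strand, was found in 2 of these genes, Echs1 and Fabp3. By window that was 6.06% of the 33, against 3.97% of all 32851 windows. AAGGTCA, the extended core of a nuclear receptor element, was found in 2 genes, Acadm and Ogdh, in 6.06% of the 33 windows and in 4.72% of all windows. Ogdh, of the cycle, differed by 0.03 (SE 0.11), or by 0.13 after quantile normalization. TGACGT, the core of a cyclic AMP response element, was found in 7 genes, Dld, Fabp3, Fh1, Idh3g, Mdh2, Ogdh and Suclg1, and in 7.51% of all windows. By window that was 9 of 33, or 27.3%, with several windows from Ogdh. In Mdh2 and Ogdh it overlapped its own reverse complement, and the windows of Ogdh that hold it overlap one another. Motifs of different kinds did not overlap in these windows. The 250 bases before the start are shown for the fatty acid oxidation genes with one of the first 2 motifs, whose differences were -0.35, -0.28 and -0.18, with the motif in capitals on the strand of the gene. They are Acadm at chr3:153944644-153944893 on the minus strand, Echs1 at chr7:140116422-140116671 on the minus strand and Fabp3 at chr4:130308488-130308737 on the plus strand.
Acadm: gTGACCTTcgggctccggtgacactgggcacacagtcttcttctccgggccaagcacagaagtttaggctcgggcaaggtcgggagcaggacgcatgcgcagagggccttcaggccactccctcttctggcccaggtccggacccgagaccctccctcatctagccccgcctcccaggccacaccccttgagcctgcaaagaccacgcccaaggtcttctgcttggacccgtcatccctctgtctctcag
Echs1: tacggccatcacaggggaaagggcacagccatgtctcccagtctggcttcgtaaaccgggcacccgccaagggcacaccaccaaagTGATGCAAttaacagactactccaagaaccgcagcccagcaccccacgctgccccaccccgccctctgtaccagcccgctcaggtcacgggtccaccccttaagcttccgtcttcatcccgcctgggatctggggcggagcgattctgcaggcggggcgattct
Fabp3: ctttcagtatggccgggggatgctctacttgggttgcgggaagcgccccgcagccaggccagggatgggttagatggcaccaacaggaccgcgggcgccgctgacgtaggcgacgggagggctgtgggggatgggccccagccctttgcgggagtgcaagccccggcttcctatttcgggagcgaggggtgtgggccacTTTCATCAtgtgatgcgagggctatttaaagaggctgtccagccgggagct
The capitals begin 249, 164 and 51 bases before the start. In Acadm and Fabp3 they are the reverse complement of the motif. A match is a stretch of letters and not a site of binding. The window of Hadha overlaps that of Hadhb, the other subunit of the trifunctional protein, by 228 of 300 bases on the opposite strand.

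Further genes of both pathways were examined as lists. Of 24 genes of the cycle and of pyruvate entry, 18 were measured, 0 passed and 0 had an unadjusted p under 0.05, and 16 were lower with a median of -0.08. After quantile normalization 10 were lower and the median was -0.02. The smallest p-values belonged to Slc25a1, the citrate carrier, at 0.24 (SE 0.11), Pdhb, a subunit of pyruvate dehydrogenase, at -0.29 (SE 0.15), and the pyruvate dehydrogenase kinases Pdk2 and Pdk4 at -0.19 (SE 0.12) and -0.18 (SE 0.12). Of 41 genes of fatty acid uptake and oxidation, 31 were measured and 0 passed. In that list 20 were lower, with a median of -0.05, and 2 of them had an unadjusted p under 0.05, where 2.77% of all probe sets were lower at that level. After quantile normalization 20 were lower and the median was -0.07. Then 1 gene, Cd36, was lower at such a p, where 3.17% of all probe sets were lower. The 2 genes were Lpl, lipoprotein lipase, at -0.43 (SE 0.16), and Cd36, the fatty acid transporter of the cell surface, at -0.39 (SE 0.14). Cd36 differed by -0.87 in experiment 4 and by -0.22 without it, and Lpl by -0.95 in experiment 1 and by -0.26 without it. After quantile normalization Cd36 differed by -0.31 (SE 0.10) and Lpl by -0.34 (SE 0.18), with 0.19 for Lpl in experiment 4. Crat, carnitine acetyltransferase, differed by -0.26, -0.20, -0.17 and -0.22 with the deposited values, for a fitted difference of -0.21 (SE 0.10). After quantile normalization experiment 4 stood at 0.15 and the fitted difference at -0.12 (SE 0.10). Acadsb, the dehydrogenase of short branched chains, differed by -0.29 (SE 0.14).

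Among 18 regulators, all measured, 0 passed and 11 were lower, against 45.5% of all probe sets, with a median of -0.03. Lpin1, lipin, a coactivator of PPARα in liver and an enzyme of lipid synthesis, differed by -0.17, -0.14, -0.41 and -0.71 in experiments 1 to 4. Its fitted difference was -0.36 (SE 0.13, limma adjusted p = 0.787). With the deposited values Lpin1 alone of this list had an unadjusted p under 0.05, where 2.77% of all probe sets were lower at that level. Prkaa2, the catalytic α-subunit of AMP-activated kinase in muscle, differed by -0.20 (SE 0.10) and Prkag3, its muscle regulatory subunit, by 0.20 (SE 0.12). Fgf21, a hormone of lipid metabolism, differed by 0.29 (SE 0.13). After quantile normalization the list had 11 lower genes, against 49.5% of all probe sets, and a median of -0.04. At an unadjusted p under 0.05 there were 3 genes, where 3.17% of all probe sets were lower and 3.25% higher. These genes were Lpin1, lower at -0.29 (SE 0.09), and Prkag3 and Fgf21, higher at 0.27 (SE 0.10) and 0.30 (SE 0.13).

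Markers of other cells and fibre types were read beside these values. Adipocytes express fatty acid genes too, and Adipoq, adiponectin, read 4.81 ± 0.21 with ATF4 and 5.27 ± 0.31 with empty vector (SD, n = 4 each). It was lower in 4 of 4 experiments, with differences of -0.28, -0.13, -0.41 and -1.04, with a fitted difference of -0.46 (SE 0.16, limma adjusted p = 0.779). Of 7 measured adipocyte markers 4 were lower and 3 were higher. The higher ones were Plin1 at 0.16 (SE 0.16), Cidec at 0.12 (SE 0.13) and Lep at 0.32 (SE 0.17). The mean of the 7 per array ran from 5.20 to 5.47 with ATF4 and from 5.35 to 5.51 with empty vector. Fast fibre markers were lower for 11 of 12 genes with a median of -0.04, and higher for 8 of 12 after quantile normalization. All 12 lay in the brightest 10% of probe sets. Slow and oxidative fibre markers were lower for 3 of 7 genes, among them Mb, myoglobin, at -0.11 (SE 0.11). In that list 1 gene passed, Tnni1, slow troponin I, where 0.0179% of all probe sets passed. Tnni1 was higher by 1.26 (SE 0.11, limma adjusted p = 0.025). The median of the list was 0.31. At an unadjusted p under 0.05, 4 of its genes were higher and 1 was lower, where 3.23% and 2.77% of all probe sets were. Besides Tnni1 these were Tnnc1 at 1.10 (SE 0.15), Casq2 at 0.71 (SE 0.18), Atp2a2 at 0.31 (SE 0.12) and Myl2 at -0.86 (SE 0.34), the last -0.35 without experiment 4. Their mean per array ran from 6.26 to 6.87 with ATF4 and from 6.04 to 6.41 with empty vector. Macrophage markers were higher for 7 of 8 genes with a median of 0.28, with Csf1r at 0.24 (SE 0.14), and their mean ran from 5.63 to 6.41 with ATF4 and from 5.47 to 6.33 with empty vector. Fibroblast markers were higher for 5 of 8 genes with a median of 0.12, and for 7 of 8 with a median of 0.17 after quantile normalization, with Col1a1 at -0.03 (SE 0.13), and their mean ran from 6.42 to 6.82 with ATF4 and from 6.38 to 6.66 with empty vector. Endothelial markers were lower for 4 of 7 genes with a median of -0.03 (0.01 after quantile normalization), with Pecam1 at -0.17 (SE 0.11), and their mean ran from 5.18 to 5.42 with ATF4 and from 5.26 to 5.48 with empty vector. No marker of the adipocyte, macrophage, fibroblast or endothelial lists passed. At an unadjusted p under 0.05, where 3.23% of all probe sets were higher and 2.77% lower, the macrophage list had C1qb at 0.55 (SE 0.14) and Laptm5 at 0.32 (SE 0.13). At that level the fibroblast list had Fn1 at 0.46 (SE 0.13) and Bgn at 0.37 (SE 0.14), and the adipocyte list had Car3 at -0.37 (SE 0.12) besides Adipoq. Car3 read 9.16 ± 0.26 with ATF4 and 9.53 ± 0.07 with empty vector (SD, n = 4 each). It was the 1 gene of its list in the brightest 10% of probe sets. Whether its signal came from adipocytes was not tested. The endothelial list had Tek at -0.33 (SE 0.12). These markers, those of slow fibres besides Tnni1 and Mb, and also Plin1, Cidec and Lep, were chosen after their values were seen. Their part in the values of the metabolic genes was not tested.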

How the data were processed

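The deposited table holds log2 values of 16755 probe sets on 8 mouse exon arrays, made by the authors with RMA, per the submitters' processing notes. The scale was judged from the range of the values. The notes state no settings and name the human genome build hg18 without its role. RMA normalizes between arrays, yet the arrays' distributions differed, which bears on bright probe sets. RNA was amplified isothermally and labelled with biotin, per the labels' protocols. Background calls per probe were not used here, so levels near background were not marked, and the number of arrays limits precision.

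The platform annotation gave 1 gene for 14996 probe sets, several for 1019 and none for 740. A gene was read from its single-gene probe set of highest mean. Entrez identifiers of all 31 members gave the same symbol in the GRCm38.p6 gene table. All probe sets were fitted with limma 3.58.1 (R 4.3.3) with the experiment as a fixed block and a variance prior that follows the mean level, with two-sided p-values adjusted by Benjamini-Hochberg over all of them. The pairing comes from the series design, which sets right against left muscle within each experiment. Paired arrays' deviations from the group means correlated at 0.065, 0.313, 0.549 and 0.051. Quantile normalization was applied to the deposited values. Members and gene lists were chosen with earlier results of these data known. Every member could be named. Outside the members, the 4 genes of smallest p of each list of related genes, called genes, defining markers and Atf4 could be named. Promoters and motifs were chosen after the values had been seen. Alternatives were median centring, no block, a random block (statmod 1.5.0), leaving out the dimmest 25% of probe sets, array weights and a constant prior. Further ones were leaving out each experiment, and averaging the probe sets annotated to a gene alone.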

Additional observations from a re-analysis of the deposited data

Results flagged for a closer look

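In 62 groups of 4 arrays (31 genes in 2 groups), 2 had 1 array far from the other 3 by Dixon's test. In both it was the empty vector array of experiment 4. Chance gives about 1 in 20 of independent groups, or 3.1. The 62 groups came from the same 8 arrays, so that number is no measure for them. Slc25a20 stood at 6.17 on the empty vector array of experiment 4, against 5.27 to 5.32 on the other empty vector arrays. Acadvl stood at 7.49, against 6.92 to 6.97.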

How the results depend on the processing

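No member of either pathway was called under any alternative run, and the lowest adjusted p of a member was 0.422. Over all probe sets the calls numbered 3 in the paired fit, 13 with a random replicate block, 7 without the dimmest 25% of probe sets, 18 with array weights, 0 with median centring or a constant prior, 3 without the replicate block, 2 with quantile normalization and 0 to 2 without 1 experiment.

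Of 372 member differences under alternatives, 342 kept their direction and side of the threshold, and 30, of 15 genes, changed sign. Dropping the block, a random block, a constant prior, dropping the dimmest 25% and averaging probe sets could not change a member's difference or a pathway median. Their 0 of 31 reversals each were therefore fixed in advance, and every change of sign came from the other alternatives. With quantile normalization these were Cpt2 (0.0018), Etfa (0.081), Idh3b (0.02), Idh3g (0.03), Pcx (-0.0004) and Ucp3 (0.001). With median centring they were Acads (-0.02), Hadh (-0.0065), Ogdh (-0.0066), Pcx (-0.0084) and Slc25a20 (-0.027). With array weights they were Decr1 (-0.069), Idh3g (6.7e-05), Suclg1 (0.0012) and Ucp3 (0.024). Without 1 experiment in turn, 13 genes had ranges on both sides of 0. Among cycle genes these were Cs (-0.102 to 0.236), Idh3b (-0.083 to 0.0076), Ogdh (-0.018 to 0.07), Dld (-0.313 to 0.038) and Pcx (-0.0041 to 0.052). Among fatty acid oxidation genes these were Slc25a20 (-0.104 to 0.159), Cpt2 (-0.272 to 0.078), Acads (-0.026 to 0.087), Hadh (-0.16 to 0.122), Acaa2 (-0.023 to 0.157), Decr1 (-0.017 to 0.154), Etfa (-0.027 to 0.028) and Ucp3 (-0.114 to 0.095). The cause was not tested. The pathway medians stayed at or below 0 under these alternatives, the cycle between -0.135 and -0.00018 and fatty acid oxidation between -0.178 and -0.036. With quantile normalization and 1 experiment left out, a setting added after the data were seen, the cycle ran from -0.035 to 0.012 and fatty acid oxidation from -0.069 to -0.019.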
